A study of Homo sapiens with 20 samples.

Results

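Where RNA polymerase II (POL2) and c-Myc (MYC) were found at 8 genes of the prostate lineage and of the androgen programme was read from lists of chromatin immunoprecipitation (ChIP-seq) peak summits in PC-3, a long-established line from a prostate carcinoma. The genes were taken by name from a fixed list of KLK2, KLK3, TMPRSS2, FOLH1, HOXB13, FOXA1, SLC45A3 and STEAP2, out of 20033 protein-coding genes of the annotation. The rule is by name, but the list was drawn up with earlier results of these data known. Wild-type (WT) PC-3 cells were set beside PC-3 cells labelled PSD10, in which the kinase gene SLK was knocked out (SLK-KO). Each genotype had 3 POL2 and 3 MYC libraries, described as biological replicates, and the 12 summit lists of these libraries were used. Both genotypes were grown to the same confluence, no androgen or inhibitor treatment is named, and the labels do not say whether PSD10 is a single clone. For POL2 the number of summits was 17126, 5047 and 9925 in WT replicates 1 to 3, and 19017, 15436 and 16298 in the knockout, so WT replicate 2 was the shortest list. The MYC lists held 201 to 365 summits in WT and 988 to 1420 in SLK-KO. Read depth is unknown, so a gene without a summit may be unbound or may lie below what that library could detect.

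In luminal prostate cells the androgen receptor, a ligand-activated transcription factor, binds DNA together with the pioneer factor FOXA1 and the homeodomain factor HOXB13 and drives secretory and membrane genes. KLK3 encodes prostate-specific antigen and KLK2 a related secreted protease. TMPRSS2 is a membrane serine protease, FOLH1 is prostate-specific membrane antigen, SLC45A3 (prostein) is a prostate membrane transporter and STEAP2 is a membrane metalloreductase. PC-3 is known as an androgen-independent line with little or no androgen receptor. The question was which of these genes carry POL2 there.

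The KLK3 promoter is shown first, because neither it nor its near-copy at KLK2 carried a POL2 summit in any library. The line gives the 250 bases before the RefSeq transcription start site (TSS), 5′ to 3′ on the plus strand of GRCh38.p14, at chr19:50854665-50854914. No annotated exon overlaps it. Capitals mark the longest stretch that the KLK2 promoter also holds, 80 bases long.
KLK3: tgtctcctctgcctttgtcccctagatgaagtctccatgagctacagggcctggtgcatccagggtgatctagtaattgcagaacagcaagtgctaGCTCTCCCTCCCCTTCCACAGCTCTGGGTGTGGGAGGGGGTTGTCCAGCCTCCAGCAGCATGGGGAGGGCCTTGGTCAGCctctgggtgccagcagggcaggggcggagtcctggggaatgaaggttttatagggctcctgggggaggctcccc

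Aligned end to end, the 250 bases before the KLK3 and KLK2 start sites were equal at 211 of 263 alignment columns (80.2%). The shared stretch ran from base -154 to -75 of KLK3 and from -160 to -81 of KLK2, counted from the TSS. The hexamer AGAACA, a core of androgen receptor binding elements, was found once in the KLK3 window, starting at base -170, and in 0 places of the KLK2 window. On either strand it was present in 14.8% of 35116 RefSeq promoters of the same length (250 bases before to 50 after the TSS).

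The promoters of STEAP2 and FOXA1 are shown because POL2 summits fell inside the windows. The STEAP2 line is chr7:90211490-90211685 on the plus strand, ending before the first GENCODE start site of the gene there. It overlaps an exon of the antisense lncRNA STEAP2-AS1. The FOXA1 line is chr14:37595250-37595499 on the minus strand and overlaps an exon of a FOXA1 transcript with no annotated coding sequence. Both are RefSeq promoter sequences of GRCh38.p14. Capitals run from the first to the last of the POL2 summits inside the window, 5 for STEAP2 and 2 for FOXA1.
STEAP2: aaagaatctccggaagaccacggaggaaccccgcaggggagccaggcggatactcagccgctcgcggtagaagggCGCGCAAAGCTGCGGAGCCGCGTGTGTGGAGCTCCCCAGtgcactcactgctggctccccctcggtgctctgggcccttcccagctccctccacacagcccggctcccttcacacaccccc
FOXA1: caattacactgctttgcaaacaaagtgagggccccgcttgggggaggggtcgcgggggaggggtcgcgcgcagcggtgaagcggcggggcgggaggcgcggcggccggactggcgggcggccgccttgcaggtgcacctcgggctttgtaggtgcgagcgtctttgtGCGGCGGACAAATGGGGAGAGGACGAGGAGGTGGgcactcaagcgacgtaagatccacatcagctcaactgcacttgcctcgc

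The promoter table held 5 of the 8 genes. TMPRSS2, FOLH1 and HOXB13 were not matched in it. The E-box CACGTG, the site MYC is known for, was in 0 of the 6 promoter windows of these 5 genes (7.26% of all promoters hold it). A match or its absence is a description of these letters only. The motifs were chosen after the summits had been seen.

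A gene was called POL2-bound at its promoter in a genotype when 2 or 3 of its 3 libraries placed a summit 1 kb or less from any TSS that GENCODE release 44 annotates. By this rule 4 of the 8 genes (FOXA1, HOXB13, TMPRSS2 and STEAP2) were called in WT, where 35.3% of all coding genes were. In SLK-KO 5 of 8 were called, the same genes and SLC45A3, where 47.3% of all coding genes were. FOXA1, TMPRSS2 and STEAP2 had a summit in all 6 libraries, as 18.0% of coding genes did. KLK2, KLK3 and FOLH1 had one in 0 of 6 libraries, as 46.3% of coding genes did. With 8 genes, shares this near to those of all genes say nothing particular of the set, and the description below is of the single genes.

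**Figure D1:**
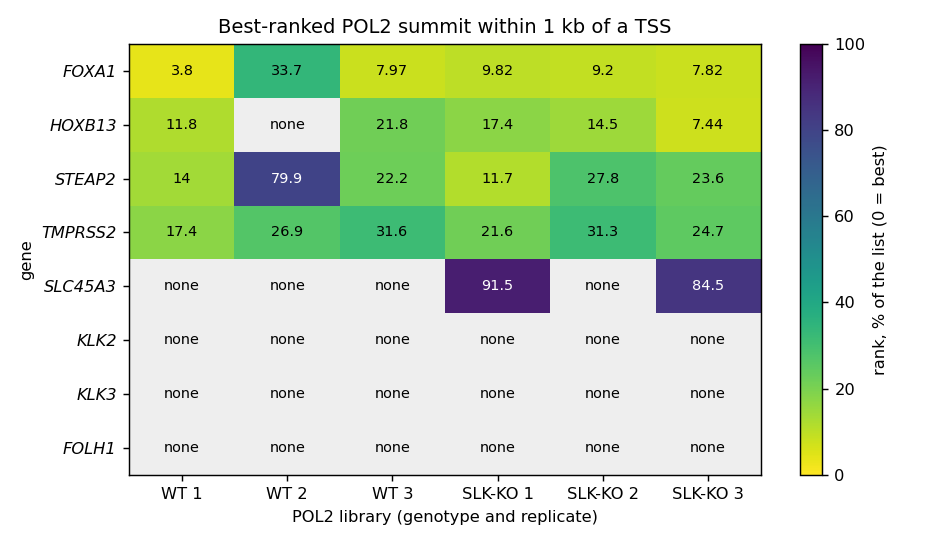
Rows are the 8 genes and columns the 6 POL2 libraries; the number and colour give the rank of the best promoter POL2 summit (1 kb or less from a TSS) as a percent of the length of its list (0 is the best). FOXA1, STEAP2 and TMPRSS2 are filled in all 6 libraries, HOXB13 in 5 and SLC45A3 in 2, while KLK2, KLK3 and FOLH1 are empty.

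FOXA1 (ENSG00000129514.8, chromosome 14, 37589552 to 37596059, minus strand), the pioneer factor that opens chromatin for steroid receptors, had the best-ranked promoter summit of the 8 genes in 4 of 6 libraries. Ranks are by the authors' score within each list, 1 being the best. Its best promoter summit had rank 651, 1702 and 791 in WT replicates 1 to 3 and rank 1867, 1420 and 1274 in the SLK-KO replicates. As a percent of the list this was 3.80 to 33.7%, with a median of 8.58%, and the highest value was that of WT replicate 2.

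The FOXA1 summits did not all mark the same start site. Counted from the TSS of the canonical transcript (37595249) in the direction of transcription, the best promoter summit was at -50, 358 and -83 bp in WT and at -1094, 329 and -1047 bp in SLK-KO. Thus 2 WT libraries had it at the canonical start, 2 SLK-KO libraries about 1 kb upstream, 237 and 284 bp before the most upstream FOXA1 TSS (37596059). Replicate 2 of each genotype had it just inside the gene, in exon 1 in SLK-KO and in intron 1 in WT. The ranges of the genotypes overlapped. With the canonical TSS alone, FOXA1 was called in 4 of 6 libraries rather than 6, because the SLK-KO summits of replicates 1 and 3 lay past 1 kb. TTC6, a coding gene on the other strand, starts 380 bp from the canonical FOXA1 TSS. ChIP-seq does not tell strands apart, so POL2 of FOXA1 and of TTC6 cannot be told apart here.

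POL2 summits also surrounded FOXA1. From 5 kb before to 5 kb past the gene there were 2, 4 and 8 summits in WT and 5, 4 and 5 in SLK-KO, 28 in all, the most of the 8 genes. Not all of them need belong to FOXA1. Those upstream of the gene lay within the annotated span of TTC6 (37595629 to 38041442). Past the 3′ end, the sites at 37588348 to 37588439 and 37588717 to 37588721 lay 371 and 45 bp from the TSS of the lncRNA ENSG00000289903. The FOXA1 site shared by the most libraries was not at the promoter. It lay 4219 bp past the 3′ end (37585293 to 37585412), in 2 WT and 3 SLK-KO libraries, at a median rank of 9.47% of the list. WT replicate 2 had its own summit there at 37584758, at 39.5% of its list. This site is 3431 bp from the closest annotated TSS, that of the lncRNA ENSG00000289903.

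HOXB13 (ENSG00000159184.8, chromosome 17, 48724763 to 48728750, minus strand), the homeodomain factor of prostate and distal gut, had a promoter summit in every library except WT replicate 2. The ranks were 2014 and 2160 in WT replicates 1 and 3 and 3300, 2244 and 1213 in SLK-KO. They were 7.44 to 21.8% of the list, and the WT list without a summit was the shortest one. All 5 summits lay between 53 bp before and 100 bp after the single annotated TSS. The WT call rests on replicates 1 and 3: without either of them 3 rather than 4 of the 8 genes were called in WT.

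The best-ranked POL2 site of this locus was not at HOXB13 but at PRAC1, a small gene known for expression in prostate, rectum and colon, which lies 2245 bp past the 3′ end of HOXB13 on the same strand. Its site (48722463 to 48722504) was present in all 6 libraries, 38 bp from the PRAC1 TSS, within a span of 42 bp. The ranks were 1126, 2579 and 1071 in WT and 798, 633 and 656 in SLK-KO, better than that of HOXB13 in each of the 5 libraries that held both. PRAC2, on the opposite strand between the 2 genes, has its TSS within 1 kb of the same summit and was called from it. Further summits inside HOXB13 were found in single libraries only, in intron 1 and in untranslated sequence of exon 2, at 53.5 to 97.8% of the list.

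TMPRSS2 (ENSG00000184012.14, chromosome 21, 41464300 to 41531116, minus strand) had 1 POL2 summit in its gene body in every library. The 6 summits spanned 36 bp (41508111 to 41508146), 12 to 47 bp inside exon 1 of the canonical transcript. The ranks were 2979, 1357 and 3132 in WT and 4108, 4835 and 4022 in SLK-KO, or 17.4 to 31.6% of the list. In WT replicate 2, the shortest list, TMPRSS2 was the best ranked of the 8 genes, ahead of FOXA1. No summit was found at the start of the longer transcripts, and the only other site nearby, 3396 bp past the 3′ end (41460660 to 41460946), was in 1 WT and 3 SLK-KO libraries at a median rank of 81.9%. That site lies within the annotated span of MX1, an interferon-induced gene on the opposite strand that overlaps the TMPRSS2 3′ end and had a promoter summit in all 6 libraries.

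STEAP2 (ENSG00000157214.14, chromosome 7, 90167590 to 90238137, plus strand) had 1 promoter site in all 6 libraries (90211565 to 90211698), and 5 of its summits are those in capitals in the sequence shown above. The ranks were 2400, 4034 and 2203 in WT and 2234, 4291 and 3840 in SLK-KO. As a percent of the list the values were 11.7 to 27.8% in 5 libraries and 79.9% in WT replicate 2. Counted from the canonical TSS, those 5 summits lay at -175 to -137 bp and that of WT replicate 1 at -42 bp, past the end of the printed stretch. The lncRNA STEAP2-AS1 starts on the other strand 105 bp from the canonical STEAP2 TSS, and the POL2 of the 2 genes cannot be told apart. SLK-KO replicates 1 and 2 each had 1 more summit, at -31447 and -32862 bp, inside the annotated gene but before the canonical transcript, at 94.4 and 65.9% of the list. The neighbouring family member STEAP1, 2761 bp away, had a promoter summit in 0 WT and 1 SLK-KO libraries.

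SLC45A3 (ENSG00000158715.6, chromosome 1, 205657851 to 205680509, minus strand) had no POL2 summit in WT (0 of 3 libraries) and 1 each in SLK-KO replicates 1 and 3. A promoter call in SLK-KO beside 0 WT libraries was seen at 3.12% of all coding genes. The SLK-KO lists were longer than those of WT replicates 2 and 3. The 2 summits were among the weakest of their lists, with rank 17406 of 19017 in SLK-KO replicate 1 and 13775 of 16298 in SLK-KO replicate 3. They lay in intron 1, 721 and 572 bp past the TSS. Neither remained with a window of 500 bp, with a score of at least 5 or in lists of equal length, and without either library SLC45A3 was not called. The intronic stretch between the 2 summits, chr1:205679788-205679937 read from hg38 on the minus strand, is shown because it is the only POL2 site of the gene.
SLC45A3: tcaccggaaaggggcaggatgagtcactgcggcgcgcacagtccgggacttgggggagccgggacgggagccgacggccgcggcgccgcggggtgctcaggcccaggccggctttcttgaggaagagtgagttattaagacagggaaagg

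The nearest POL2 summit in the other 4 libraries was 25.8 to 26.7 kb past the 3′ end, at the promoter of ELK4. ELK4 is an ETS factor gene that is known to be joined to SLC45A3 in read-through transcripts of prostate cancer. Its promoter was POL2-bound in all 6 libraries at a median rank of 7.26%.

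KLK3 (ENSG00000142515.16, chromosome 19, 50854915 to 50860764) and KLK2 (ENSG00000167751.13, 50861568 to 50880567), both on the plus strand, had 0 POL2 summits within 5 kb in all 6 libraries. The stretch of 80 bases that their promoters share is longer than a read of 50 bp. How reads that fit both promoters were treated is not given in the sources used here. The nearest POL2 summit of each list was 50.3 to 50.4 kb from KLK3 and 57.0 kb from KLK2, and in all 6 libraries it was that at the promoter of the pseudogene C19orf48P. KLK4 and KLK15, the coding genes that flank the pair, also had a promoter summit in 0 of 6 libraries. No coding gene within 250 kb of KLK2 or KLK3 had a promoter summit in all 6.

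FOLH1 (ENSG00000086205.18, chromosome 11, 49145092 to 49208638, minus strand) had 0 summits as well, and the nearest POL2 summit was 1089 to 1297 kb away. The nearest coding genes on each side, TRIM64C and OR4C13, also had 0 of 6 libraries. FOLH1 has a near-identical copy on the same chromosome, FOLH1B, which had 0 POL2 summits too. How reads that fit both copies were treated is not given in the sources used here, so the empty FOLH1 locus is uncertain.

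**Figure D2:**
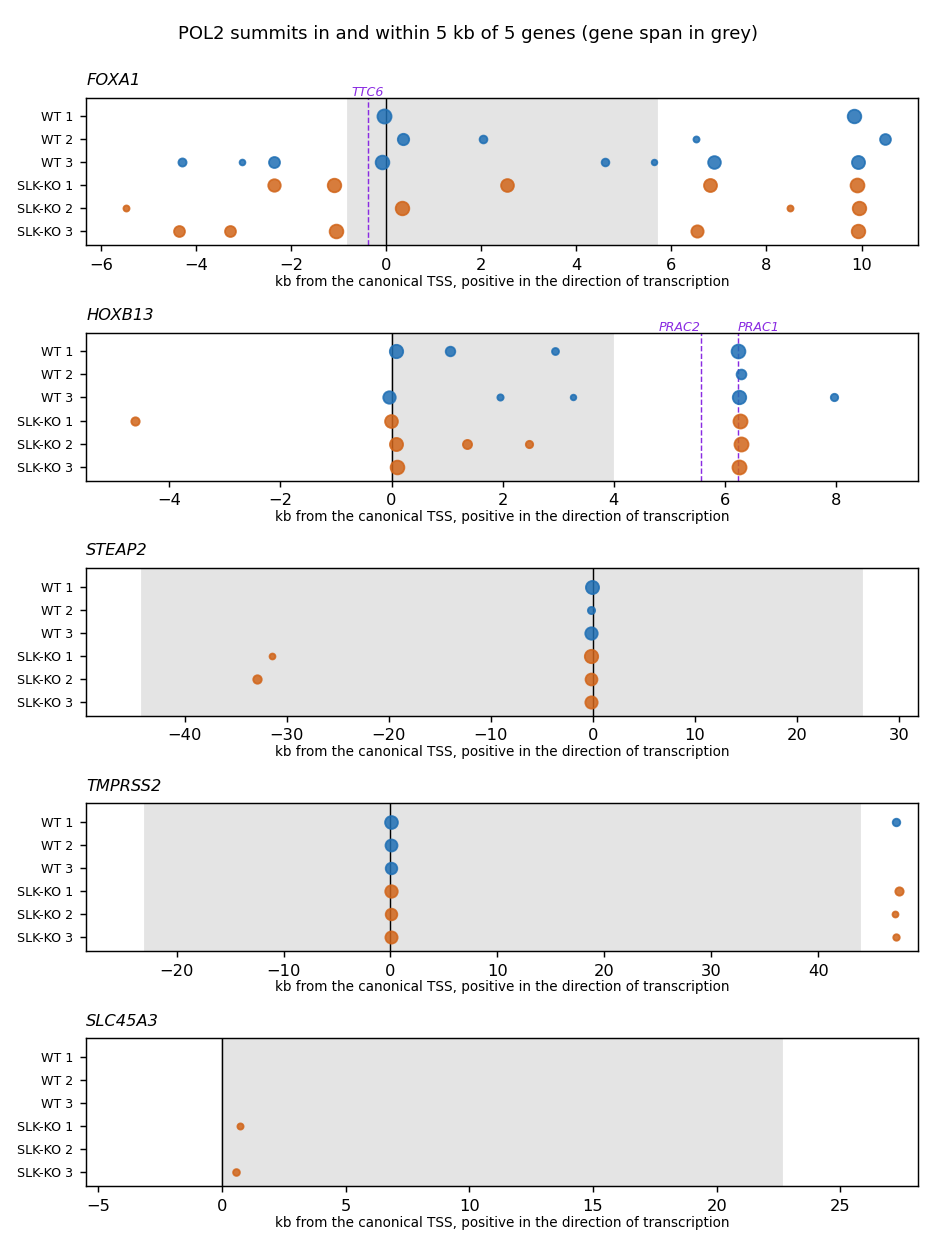
Each point is a POL2 summit of 1 library (rows; WT in blue, SLK-KO in orange) at its distance in kb from the canonical TSS of the gene (black line), with larger points for better ranks, the gene span in grey and dashed lines at the starts of TTC6, PRAC2 and PRAC1. TMPRSS2 and STEAP2 have a single aligned column at the start site, HOXB13 has aligned columns at its own start and at PRAC1, and FOXA1 has summits on both sides of the gene.

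Within the lists, FOXA1 ranked better than STEAP2 in 6 of 6 libraries, better than TMPRSS2 in 5 of 6 and better than HOXB13 in 4 of the 5 that held both. STEAP2 ranked better than TMPRSS2 in 5 of 6. As ranges over libraries, however, FOXA1 (3.80 to 33.7%), HOXB13 (7.44 to 21.8%), STEAP2 (11.7 to 79.9%) and TMPRSS2 (17.4 to 31.6%) overlapped. SLC45A3 (84.5 to 91.5%) lay apart from all of them. Among genes of the lists below with a promoter summit in all 6 libraries, the rank percents most like those of FOXA1 were those of ETV5 (mean absolute difference 3.00 points over 6 libraries) and ELF3 (3.54 points). Those most like STEAP2 were KRT7 (7.49 points) and NCAPD3 (7.70 points). KRT7 was also among those most like TMPRSS2 (10.7 points).

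The gene body, from annotated start to end, held a POL2 summit in at least 2 libraries at 4 of 8 genes in WT, against 29.9% of all coding genes, and at 5 of 8 in SLK-KO, against 42.2%. These were the genes called at the promoter. Past the first 1 kb of the annotated gene, 4 genes remained in WT and 3 in SLK-KO. For TMPRSS2 and STEAP2 the summits counted there include those at the canonical TSS, which lies inside the annotated gene. FOXA1 was counted in SLK-KO only with a replicate 2 summit 329 bp past its canonical TSS and 30 bp from an annotated TSS. So this count is not one of POL2 away from start sites. Within 5 kb past the 3′ end, all 6 libraries had a summit at HOXB13 and FOXA1, as 3.03% of coding genes did. For HOXB13 this was the PRAC1 promoter. This window was chosen after the summits had been seen.

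Whether the genotypes differed was tested on the number of POL2 summits from 1 kb upstream to the gene end, as log2(number + 1). FOXA1 had 1, 2 and 3 summits in WT and 2, 1 and 1 in SLK-KO (2.00 ± 1.00 and 1.33 ± 0.577, SD, n = 3 each), a log2 difference of -0.33 (exact permutation p = 0.7, adjusted 1). HOXB13 had 3, 0 and 3 in WT and 1, 3 and 1 in SLK-KO, a difference of 0.00 (exact permutation p = 1). That value for HOXB13 has no stable direction: it was -0.67 without WT replicate 2, the shortest list, 0.33 without WT replicate 1 or 3, and -0.33 without SLK-KO replicate 2. STEAP2 had 1, 1 and 1 in WT and 2, 2 and 1 in SLK-KO, a difference of 0.39 (exact permutation p = 0.4, adjusted 1). SLC45A3 had 0 in each WT library and 1, 0 and 1 in SLK-KO, a difference of 0.67 (exact permutation p = 0.4, adjusted 1). TMPRSS2 had 1 in each of the 6.

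No gene of the 5 had every SLK-KO library above every WT library, as 6.47% of 11476 genes with a POL2 summit did. The median log2 difference of those 11476 genes was 0.33. The two-sided exact permutation test has 20 relabellings and cannot go below p = 0.1, and 0 of 11476 genes reached p under 0.05 before adjustment. The direction for FOXA1 turned to 0.19 with a score of at least 5, and the differences of FOXA1 and STEAP2 were 0.00 in lists of equal length. A difference between genotypes at these genes was therefore not detectable with 3 libraries each and unknown depth.

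MYC summits were absent from all 8 genes: 0 of 8 had one within 1 kb of a TSS in any of the 6 MYC libraries, against 9.66% of all coding genes, and 0 of 8 in the gene body, against 8.50%. Because so few genes carry a MYC summit, 0 of 8 is not a result about these genes. The nearest came at FOXA1, where 2 SLK-KO libraries had a MYC summit upstream of the gene, within the annotated span of TTC6. It lay 1743 bp from the nearest FOXA1 TSS in SLK-KO replicate 1 (37597802, rank 1084 of 1218) and 2188 bp away in SLK-KO replicate 2 (37598247, rank 366 of 1420). In SLK-KO replicate 3 the nearest MYC summit was 2185 kb away, and in the WT libraries it was 2467 kb or more away. The WT MYC lists are shorter than those of SLK-KO, and a difference between genotypes was not tested here. POL2 summits of WT replicate 3 (37597607 and 37598273), SLK-KO replicate 1 (37597600) and SLK-KO replicate 3 (37598531) lay in the same upstream stretch. The summit at 37598273 was weak, at 95.5% of its list.

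CpG content around the start sites is a property that the choice of genes did not use, and it was looked at after the summits had been seen. In the 1000 bp around the canonical TSS, the ratio of observed to expected CpG was 0.867 at FOXA1, 0.826 at SLC45A3, 0.799 at FOLH1, 0.776 at STEAP2, 0.684 at TMPRSS2 and 0.596 at HOXB13, and 0.148 at KLK3 and 0.146 at KLK2. A promoter was counted as CpG-rich with a ratio of at least 0.6 and a GC content of at least 50%, which 5 of the 8 were. HOXB13 lay just under the limit. Of all coding genes, 12986 were CpG-rich, and 49.0% of these were called in at least 2 WT and 64.1% in at least 2 SLK-KO POL2 libraries, against 10.1% and 16.4% of the 7047 others. KLK2 and KLK3 thus belong to the class that is seldom called, while FOLH1 is a CpG-rich gene without a summit and HOXB13 a bound gene outside the CpG-rich class.

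**Figure D3:**
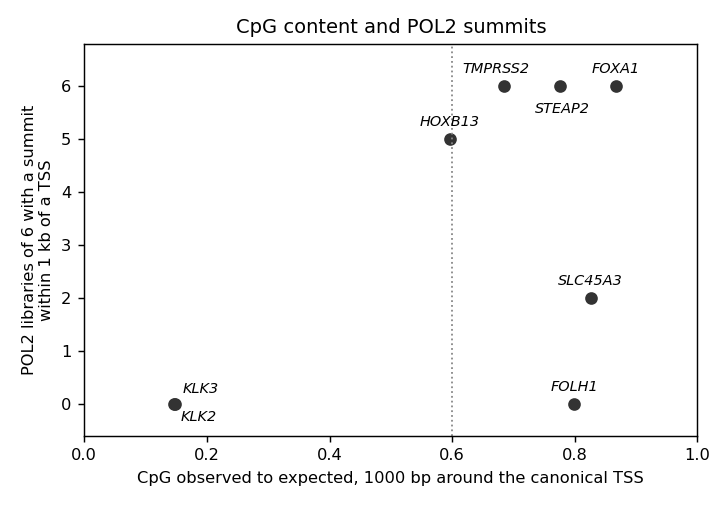
Each point is 1 of the 8 genes; the horizontal axis is the ratio of observed to expected CpG in the 1000 bp around the canonical TSS, with a dotted line at 0.6, and the vertical axis the number of POL2 libraries (of 6) with a promoter summit. KLK2 and KLK3 share the lowest ratio at 0 libraries, and FOLH1 stands at 0 libraries with a ratio of 0.799.

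Other genes of the androgen and prostate programme were read from fixed lists by the same rule. Of 25 further androgen-response genes, 11 (44.0%) were called at the promoter in WT and 13 (52.0%) in SLK-KO, beside 35.3% and 47.3% of all coding genes, and 9 had a summit in 0 of 6 libraries. The best ranked were SLC38A2, an amino acid transporter, at a median of 0.437% of the list, and SGK1, a steroid-induced kinase, at 3.96%. Both also respond to other signals. Those with 0 libraries included ACP3, the prostatic acid phosphatase, and AZGP1, a secreted glycoprotein.

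For the lists that follow, the shares over all coding genes are again 35.3% called in WT, 47.3% called in SLK-KO and 46.3% with 0 of 6 libraries, and the SLK-KO lists are longer than those of WT replicates 2 and 3. Of 15 transcription factor genes of prostate and other epithelia, 8 (53.3%) were called in WT and 9 (60.0%) in SLK-KO. SOX9 (median rank 1.74%) and SOX4 (2.04%) led, in all 6 libraries. EHF, an epithelial ETS factor, and GATA2, a partner of the androgen receptor, had 0 libraries. Of 15 genes for nuclear receptor coregulators and chaperones, 8 (53.3%) were called in WT and 13 (86.7%) in SLK-KO, led by the HSP90 genes HSP90AB1 (0.568%) and HSP90AA1 (1.70%). NCOA1, a steroid receptor coactivator, was the only one with 0 libraries. Of 6 ETS factor genes 5 were called in each genotype, with ELK4 (7.26%) and ETV5 (11.4%) the best ranked. ERG, the usual fusion partner of TMPRSS2 in prostate cancer, had a summit in 0 of 6 libraries.

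The epithelial label of the cells was checked on marker lists. Of 9 epithelial keratin and adhesion genes, 5 (55.6%) were called in WT and 6 (66.7%) in SLK-KO, beside 35.3% and 47.3% of all coding genes. The luminal keratin genes KRT8 (1.76%) and KRT19 (2.85%) led, and the basal keratin genes KRT5 and KRT14 had 0 libraries. Other genes of the list, named after their values were seen, went the other way in at least 1 genotype. The basal keratin gene KRT15 had a summit in 2 WT and 3 SLK-KO libraries. The adhesion gene CDH1 (E-cadherin) had one in 1 WT and 0 SLK-KO libraries. EPCAM, also an adhesion gene, had one in 1 WT and 3 SLK-KO libraries, so it was called in SLK-KO but not in WT. Of 8 neuroendocrine markers 7 (87.5%) had 0 libraries, where 46.3% of all coding genes did, CHGA among them. The exception was SYP (synaptophysin), with a summit in 2 WT and 3 SLK-KO libraries at a median rank of 20.8%. Of 10 blood, endothelial, muscle and liver markers 9 (90.0%) had 0 libraries, ALB and ACTG2 among them, and PECAM1 had 1 summit in 1 WT library, at 96.3% of the list.

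**Figure D4:**
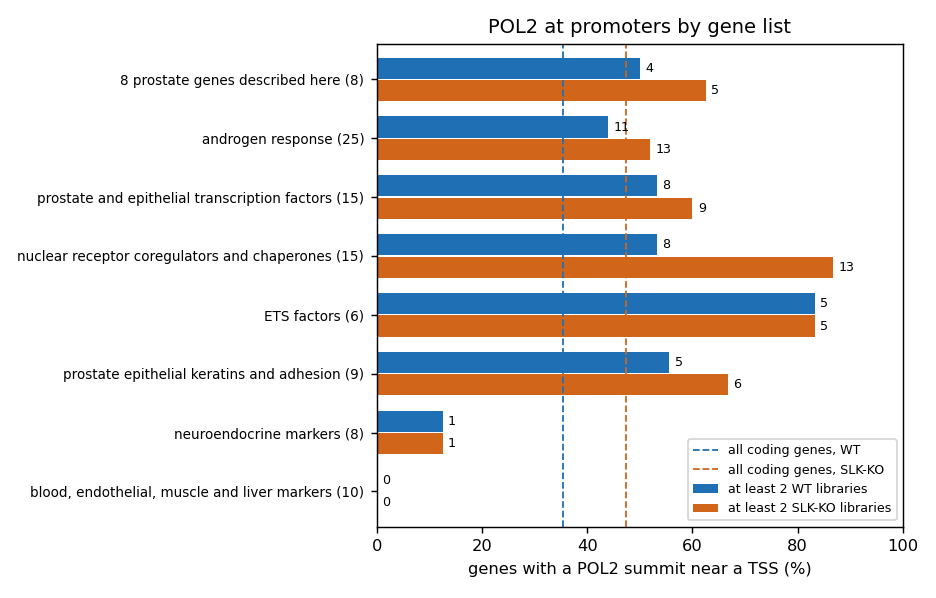
Bars give the percent of each gene list (its size in brackets) called POL2-bound at the promoter in WT (blue) or SLK-KO (orange), with the count beside each bar. The dashed lines mark all coding genes, at 35.3% and 47.3%; the 8 prostate genes stand at 4 and 5 genes, and the 10 markers of other tissues at 0.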

How the data were processed

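The samples were 12 ChIP-seq libraries of PC-3 cells, 3 per antibody and genotype. IgG and Input libraries were left out. The pipeline was nf-core/chipseq 2.1.0 on GRCh38.p14 with paired-end reads of 50 bp, per the labels, and the submitters' processing notes list BWA 0.7.18-r1243 and MACS3 3.0.1. The deposited lists give 1-bp summits per library with a score that was read as −log10 of the authors' q-value, because the lowest score of each list lay above 1.30103. The control used for calling is not given in the sources used here. Scores served only for ranks and filters within a list. Summits (0 of them past the end of its chromosome in hg38) were compared with GENCODE release 44. Sites chained summits 250 bp or less apart.

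The 8 genes and all gene lists were chosen with earlier results of these data known. From each list at most 4 genes were named: those 2 with a promoter summit in the most libraries, then by median rank, and the first 2 in the alphabet with 0. For genes bound in all 6 libraries the 2 list genes of most similar rank percents were added. Genes that these rules named but that are withheld are not reported here. The window past the 3′ end, CpG content, motifs and the loci FOLH1B, C19orf48P and STEAP2-AS1 were chosen after the summits had been seen. Neighbours named were the nearest coding genes and up to 2 within 250 kb bound in all 6 libraries. P-values measure only the spread between libraries. Tests were exact permutations over 3 and 3 libraries, with Benjamini-Hochberg adjustment over all 11476 genes with a summit, and the test was tried on simulated counts first. Alternatives covered TSS windows, score, list length, canonical TSSs, chaining, a replicate block and leaving out libraries. Python 3.11.15, numpy 2.4.6, biopython 1.88 and matplotlib 3.10.9 were used.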

Additional observations from a re-analysis of the deposited data

How the results depend on the processing

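Of 80 alternatives to the counts of called genes 76 stayed within 1.5 times the count. This is no measure of robustness, because many of the 80 could not change. The MYC counts were 0, and stricter filters or fewer libraries can only keep them there. Leaving out a library of either genotype cannot alter the count of the other genotype. None of 43 alternatives to the genotype differences passed the threshold, which a smallest p of 0.1 does not allow. Some directions changed. FOXA1 turned from -0.33 to 0.19 with a score of at least 5, FOXA1 and STEAP2 were at 0.00 in lists of equal length, and HOXB13, at 0.00, ran from -0.67 to 0.33. For SLC45A3 those settings left no summit and gave no difference. Genes with a POL2 summit in the gene body in at least 2 SLK-KO libraries numbered 3 without the first 1 kb and 3 to 5 when a library was left out, each SLK-KO library giving 3. MYC sites within 5 kb of the genes numbered 1 rather than 2 when chained at 500 bp. SLC45A3 went from 2 libraries to 0 with a 500 bp window, a score of at least 5 or equal list length, and FOXA1 gained 1 MYC library with a 2 kb window.

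The genotypes use equal replicate numbers, but the labels do not say that these mark a shared day or batch. For POL2, correlations of deviations over genes were 0.0525, -0.00875 and -0.0157 between libraries of equal number. Between libraries of different number they ran from -0.0775 to 0.0887, so equal numbers did not stand out. Such values cannot show whether the libraries were paired. With the replicate block the differences are the same by construction, 0.39 for STEAP2 and 0.67 for SLC45A3. The mean of paired differences equals the difference of the group means. Sign flips allow no p below 0.25, so no call could change. Unknown read depth and the number of libraries limit every value.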

Other observations

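Of all coding genes 9.66% had a promoter MYC summit in 1 or more of the 6 libraries. The same held for 2 of 25 androgen-response genes (8.00%), 1 of 15 transcription factor genes (6.67%), 4 of 15 coregulator and chaperone genes (26.7%), 2 of 6 ETS factor genes and 0 of 9 keratin and adhesion genes, so nothing particular to these lists is read from the counts. HSP90AB1, a cytosolic chaperone that holds steroid receptors, had one in 1 WT and 3 SLK-KO libraries, and KDM1A, a histone demethylase, in 0 WT and 3 SLK-KO libraries. Among the ETS factor genes ETV4 had a MYC summit in 0 WT and 3 SLK-KO libraries and ELK4 in 1 SLK-KO library. Of the 25 androgen-response genes, ABCC4, an efflux transporter, had one in 2 SLK-KO libraries, and CAMKK2, a calcium-dependent kinase, in 1 WT and 2 SLK-KO libraries. These genes were picked out after their values were seen, the SLK-KO MYC lists are longer, and the differences between genotypes were not tested.

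Near the kallikrein genes, the promoter of C19orf48P carried a MYC summit in 4 of 6 libraries and POL2 in 6 of 6. GTPBP10, 97.1 kb from STEAP2, had POL2 in all 6 libraries and MYC in 1 SLK-KO library.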
